A study of Mus musculus with 4 samples.

Results

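Cytosolic chaperones are the proteins that help other proteins reach and keep their fold, and 35 of their genes, taken by name from the 55471 genes counted in each library, are described here in RNA bound to tagged ribosomes of mouse brain. All 35 were found by symbol and all 35 had enough counts to be tested. They comprise the Hsp90 proteins with 3 of their co-chaperones, 7 members of the Hsp70 and Hsp110 group, 10 J proteins, 4 other partners of Hsp70, 2 small heat shock proteins, 6 subunits of the chaperonin CCT and the transcription factor Hsf1. The cuprizone animals were fed chow with 0.2% cuprizone by weight and the comparison animals were mock treated on a normal diet, with 2 libraries in each group. Cuprizone is a copper chelator that kills oligodendrocytes and strips myelin from white matter. Every mouse was of the genotype GFAP-Cre+/- Rpl22HA/wt, male and 8 to 9 weeks old at the start, and corpus callosum was dissected, per the series' design text. Cre under the GFAP promoter switches on an HA tag on the ribosomal protein Rpl22, so the pull-down reports cells in which Cre was active at any time, with whatever other RNA it carried along. The samples are labelled 3 weeks and batch 1, while the design text names later collection times, and the labels do not say how many animals went into a library.

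Hsp70 proteins bind short hydrophobic stretches of unfolded chains, J proteins deliver the chains and start ATP hydrolysis, and nucleotide exchange factors such as the Hsp110 and Bag proteins let the chain go. Hsp90 takes clients such as kinases and steroid receptors at a later step, and the chaperonin CCT, a ring of related subunits, folds actin and tubulin inside its cavity. Heat shock factor Hsf1 switches on the inducible members when unfolded protein builds up. In brain, neurons carry high constitutive levels of Hsp90 and Hsc70, and alpha B-crystallin is abundant in oligodendrocytes and astrocytes.

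Library totals ran from 21209517 to 23822620 counts, and 3 counts, the limit that a count of 0 allows, were worth 0.126 to 0.141 CPM, that is counts per 1000000 counts of the library. That limit covers counting error only. The astrocyte label was checked on 15 marker genes, all with counts in every library, which together took 6908 and 7628 CPM in the cuprizone libraries and 11160 and 10710 CPM in the mock libraries. Folds of 13 of these 15 genes were negative, 7 of them with an unadjusted p under 0.05. Over all tested genes, the edgeR test gave such a p with a negative fold to 7.04% and with a positive fold to 5.73%. RNA of genes that mark other cell types was present too: 14 neuron genes took 15930 and 15860 CPM in cuprizone against 13730 and 14480 CPM in mock libraries, and 10 oligodendrocyte genes 10520 and 13630 CPM in cuprizone against 13190 and 15310 CPM in mock. The neuron sum is mostly Snap25, at 9900 and 10010 CPM in cuprizone against 8292 and 8297 CPM in mock libraries; 8 of the 14 folds were positive, 1 with an unadjusted p under 0.05, and 6 negative, 4 of them with such a p. Of the oligodendrocyte genes 8 of 10 had negative folds, 4 with an unadjusted p under 0.05, and 1 of the 2 positive ones had such a p. Genes of cerebellar granule cells set cuprizone replicate 2 apart, since the 7 markers summed to 131 CPM in cuprizone replicate 1, 1166 CPM in cuprizone replicate 2, and 45.0 and 33.9 CPM in the mock libraries, where 4 of the 7 were at 0. All 6 that could be tested were higher in both cuprizone libraries, with an unadjusted p under 0.05. Sums of the other marker lists were 118 to 133 CPM in cuprizone against 126 to 142 CPM in mock for 6 genes of oligodendrocyte precursors (4 of them with negative folds, and a median of -1.15), 17.9 to 20.1 CPM in cuprizone against 30.2 to 42.4 CPM in mock for 10 microglia genes (Cx3cr1, Aif1 and Ptprc at 0 in both cuprizone libraries), and 5.13 to 17.0 CPM in cuprizone against 10.6 to 11.2 CPM in mock for 8 endothelial genes. For 7 cortical excitatory genes they were 858 to 1108 CPM in cuprizone against 1073 to 1088 CPM in mock, and for 8 striatal genes 221 to 240 CPM in cuprizone against 249 to 250 CPM in mock. Of the cortical folds 2 were positive and 5 negative, with 1 on each side at an edgeR unadjusted p under 0.05. Of the 7 striatal folds that could be tested 3 were positive and 4 negative, 1 of the negative ones with such a p. Mitochondrially encoded RNA took 0.00327% and 0.00316% of counts in cuprizone and 0.0517% and 0.0503% in mock libraries, and 7 mostly nuclear non-coding RNAs took 944 and 938 CPM in cuprizone against 229 and 209 CPM in mock. Mitochondrial transcripts were 5 of the 8 genes called as fallen, and nuclear RNAs 3 of the 5 called as risen, among all genes. The part of these differences in the results that follow was not tested, and fewer cells of a type cannot be told apart from less RNA per cell in such bulk samples.

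Most of the 35 chaperone genes stood slightly higher in the cuprizone libraries, and no single one passed the test. The 35 genes together took 14280 and 14270 CPM in cuprizone and 11750 and 11910 CPM in mock libraries, a sum in which Hsp90ab1, Hspa8 and Hsp90aa1 weigh most. On the log2 scale the median fold of cuprizone over mock was 0.18 over the 35 genes and 0.0006 over all 15816 genes tested. Positive folds were found in 28 of the 35, or 80.0%, where 50.1% of all tested genes had one. The 35 were chosen with earlier results of these data known, so this share is description only. Among 63 other chaperone and cofactor genes tested, 29 had positive folds, with a median of -0.03 over the 63. Sizes in the 35 were mostly small, from -0.12 to 0.46 in all but Hspa1a, Hspa1b, Bag3 and Hspb1. The edgeR quasi-likelihood test with Benjamini-Hochberg adjustment over all genes called 0 of the 35 as risen and 0 as fallen, beside 0.0316% of all genes called as risen, 0.0506% as fallen and 0.0822% either way. At an unadjusted p under 0.05 the test held 3 with a positive fold (Cryab, Hsp90aa1 and Dnajc6) and 0 with a negative one, against 5.73% and 7.04% of all genes. DESeq2 called 0 of the 35 where it called 1.83% of genes as risen and 2.84% as fallen, and limma-voom called 0 where it called 0.297% of genes either way. At an unadjusted p under 0.05, DESeq2 held 4 of the 35 and limma-voom 5, all positive. The share of all genes at such a p is not given here for these tests. Their counts of 4 and 5 are therefore description only. DESeq2 adds Hspa4l to the 3, and limma-voom adds Hspa4l and Hsp90ab1.

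In 22 of the 35 genes both cuprizone libraries lay above both mock libraries in CPM, and in 1, Hspb1, both lay below. The same held for 25.7% of all tested genes in the higher direction and 18.9% in the lower. With CPM scaled by the TMM factors used in the test, which take out a general shift of 0.07 on the log2 scale, the counts were 18 higher and 2 lower (Hspb1 and Dnajc7), against 21.9% and 22.5% of all genes; Hspa8, Hsph1, Dnajb4 and Cct4 were the genes that no longer lay higher. Without mock replicate 1 the edgeR test held 0 of the 35 at an unadjusted p under 0.05, and 2 without mock replicate 2, while 29 and 27 of the folds were positive. Without cuprizone replicate 2, the library rich in granule cell genes, 25 folds were positive and 10 negative, with a median of 0.14.

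**Figure D1:**
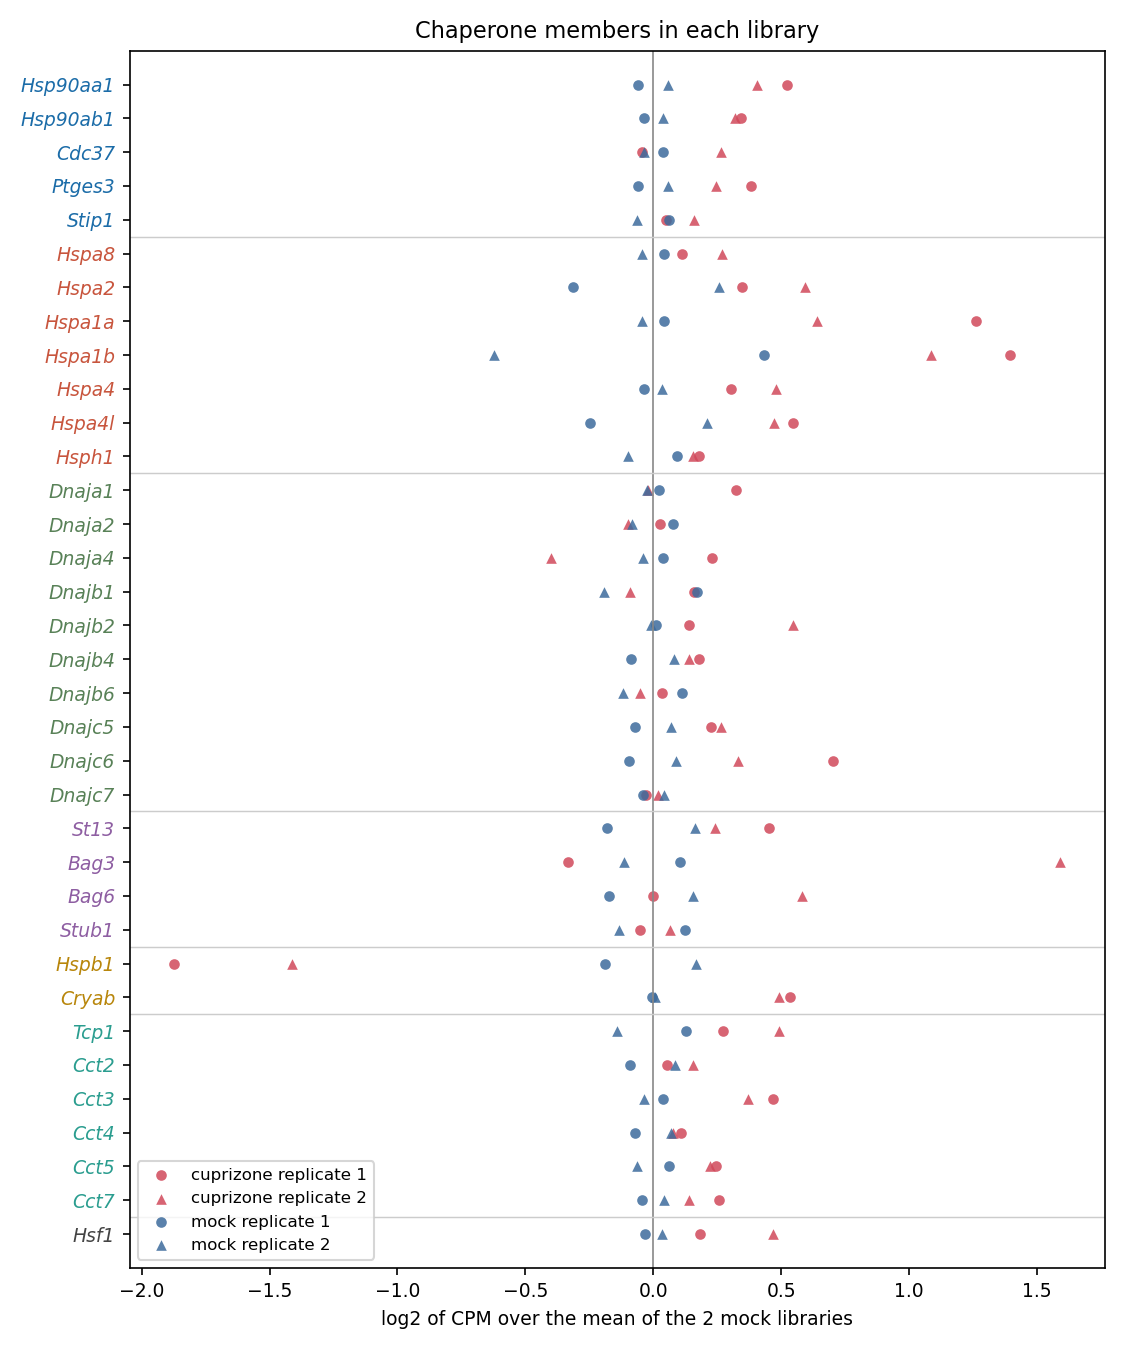
Each row is 1 chaperone gene, coloured by family, and each point 1 library, placed on the x axis by the log2 of its CPM over the mean CPM of the 2 mock libraries. In 22 of 35 rows both cuprizone points lie right of both mock points, and in the row of Bag3 the 2 cuprizone libraries lie far apart, at 4.17 and 15.8 CPM.

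Hsf1 binds the heat shock element, in which GAA and TTC face each other, and RefSeq promoter windows on GRCm38.p6, from 250 bases before the start to 50 after it, could be read for 27 of the 35 genes. The windows of Hsp90aa1, Hsp90ab1, Hspa8, Dnajc5, St13, Cryab, Cct4 and Hsf1 were not used here. The letters searched were GAANNTTC and TTCNNGAA, each its own reverse complement, so that both strands are covered. At least 1 window of 13 of the 27 genes held such a pair, that is 48.1%, against 17.0% of all 27025 genes with a window. Some genes have several windows. Counted by window, 15 of the 39 windows of these genes held a pair, or 38.5%, against 15.1% of all 32851 windows. A run of 3 units (GAANNTTCNNGAA or TTCNNGAANNTTC), which counts as 2 overlapping pairs, was in windows of 2 of the 27, Hsph1 and Dnajb6, or 7.41%, against 0.662% of all genes. The 13 genes with a pair had a median log2 fold of 0.09, with 9 positive. The 14 with a window and no pair had 0.27, with 11 positive, and the 8 without a window had 0.26, with 8 positive. The differences between these groups were not tested. A match is a run of letters, not a site shown to be bound.

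The 5 windows shown next are those of the 2 near-identical inducible Hsp70 genes, of the inducible small heat shock gene Hspb1, and of the 2 genes with a run of 3 units; capitals mark the GAA and TTC units of each pair.
Hspa1a: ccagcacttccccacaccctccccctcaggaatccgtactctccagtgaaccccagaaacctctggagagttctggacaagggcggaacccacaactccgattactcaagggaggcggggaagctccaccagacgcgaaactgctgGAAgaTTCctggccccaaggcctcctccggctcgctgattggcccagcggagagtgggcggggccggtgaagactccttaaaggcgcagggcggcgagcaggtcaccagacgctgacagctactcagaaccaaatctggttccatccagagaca
Hspa1b: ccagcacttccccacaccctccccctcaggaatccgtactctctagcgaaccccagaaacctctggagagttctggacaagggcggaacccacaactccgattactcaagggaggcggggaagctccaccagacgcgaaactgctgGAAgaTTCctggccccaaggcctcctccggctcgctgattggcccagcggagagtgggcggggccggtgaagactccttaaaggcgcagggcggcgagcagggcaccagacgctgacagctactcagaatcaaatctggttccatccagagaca
Hspb1: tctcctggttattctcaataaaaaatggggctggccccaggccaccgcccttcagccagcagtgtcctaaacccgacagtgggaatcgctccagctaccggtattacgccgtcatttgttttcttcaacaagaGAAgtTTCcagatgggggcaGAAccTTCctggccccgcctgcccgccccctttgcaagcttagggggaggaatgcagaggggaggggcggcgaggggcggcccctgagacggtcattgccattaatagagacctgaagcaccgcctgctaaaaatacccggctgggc
Hsph1: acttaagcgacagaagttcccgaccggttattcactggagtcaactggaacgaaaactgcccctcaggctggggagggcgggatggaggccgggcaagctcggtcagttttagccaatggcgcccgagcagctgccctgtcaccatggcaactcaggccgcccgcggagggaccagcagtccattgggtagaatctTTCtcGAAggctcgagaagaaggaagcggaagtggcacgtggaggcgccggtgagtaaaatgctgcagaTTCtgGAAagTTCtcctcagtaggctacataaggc
Dnajb6: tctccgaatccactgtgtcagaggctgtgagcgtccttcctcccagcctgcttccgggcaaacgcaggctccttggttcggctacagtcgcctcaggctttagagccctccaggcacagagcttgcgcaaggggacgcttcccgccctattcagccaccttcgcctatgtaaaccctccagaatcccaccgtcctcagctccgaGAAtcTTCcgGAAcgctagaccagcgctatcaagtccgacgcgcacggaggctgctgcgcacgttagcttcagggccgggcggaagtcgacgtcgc
These windows lie at chr17:34972107-34972406 (minus strand) for Hspa1a, chr17:34959189-34959488 (minus strand) for Hspa1b, chr5:135887669-135887968 (plus strand) for Hspb1, chr5:149636266-149636565 (minus strand) for Hsph1 and chr5:29735648-29735947 (plus strand) for Dnajb6, each printed 5′ to 3′ on the strand of its gene. The windows of Hspa1a and Hspa1b were identical at 296 of 300 bases, and their pair begins 104 bases before the start in both.

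**Figure D2:**
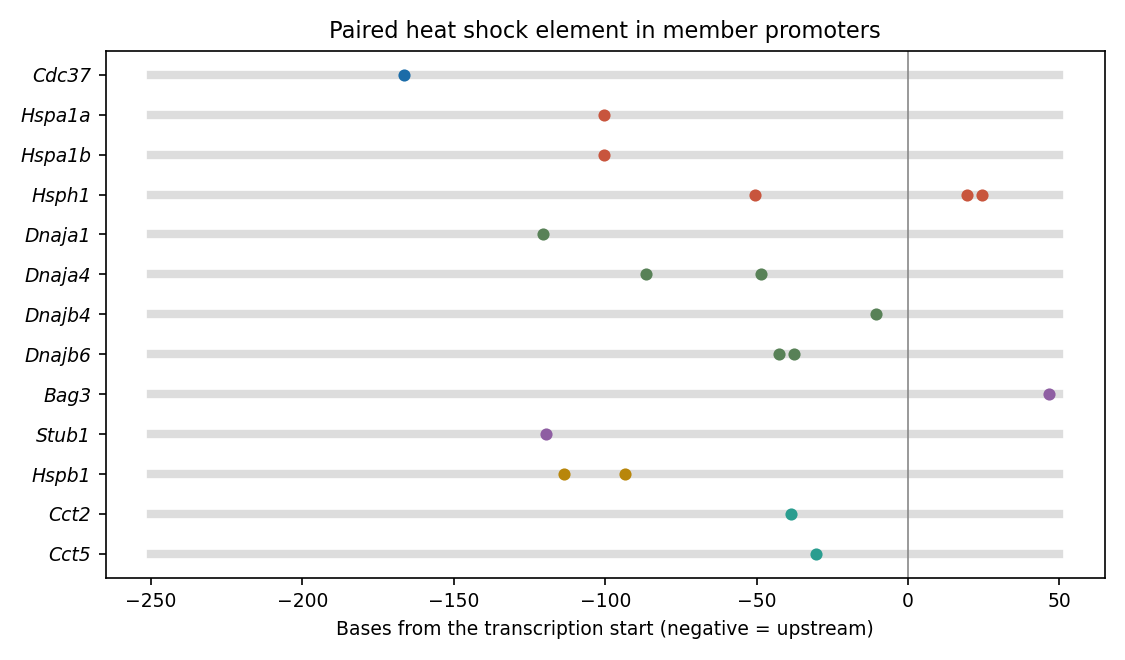
Grey bars are promoter windows of the 13 chaperone genes with a paired heat shock element, using the window with the most matches for each gene, and points are the centres of the pairs by their distance in bases from the transcription start. The pairs of Hspa1a and Hspa1b sit at the same distance, and those of Hsph1 and Bag3 reach past the start.

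Both cytosolic Hsp90 genes were among the higher members. Hsp90ab1 (ENSMUSG00000023944), the constitutive form, had 3167 and 3123 CPM in cuprizone and 2437 and 2563 CPM in mock libraries. Hsp90aa1 (ENSMUSG00000021270), the stress-inducible form, had 1429 and 1320 CPM in cuprizone against 955 and 1037 CPM in mock libraries. Neither gene's groups overlapped, and the difference between groups was larger than that within either pair. The log2 folds were 0.26 (SE 0.11) for Hsp90ab1 and 0.39 (SE 0.13) for Hsp90aa1, with edgeR adjusted p = 0.404 and 0.285 and unadjusted p = 0.0538 and 0.0181. Per kilobase of the principal transcript, which allows levels of different genes to be set side by side, Hsp90ab1 stood at 1248 CPM in cuprizone and 992 in mock libraries, and Hsp90aa1 at 419 CPM in cuprizone and 304 in mock libraries. The ratio of Hsp90aa1 to Hsp90ab1 counts was 0.451 and 0.423 in cuprizone and 0.392 and 0.404 in mock libraries. On GRCm38, Hsp90aa1 spans 110690605 to 110702728 on chromosome 12 and Hsp90ab1 45567775 to 45573271 on chromosome 17.

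The Hsp90 co-chaperones differed less. Ptges3, the p23 protein that steadies the closed form of Hsp90, had 353 and 321 CPM in cuprizone and 260 and 282 CPM in mock libraries, without overlap, at a log2 fold of 0.24 (SE 0.14). Stip1, known as Hop, which hands clients from Hsp70 to Hsp90, had 348 and 375 CPM in cuprizone and 351 and 322 CPM in mock libraries. Cdc37, which brings kinases to Hsp90, had 294 and 364 CPM in cuprizone against 311 and 295 CPM in mock. In these last 2 the groups overlapped, with folds of 0.04 (SE 0.14) and 0.05 (SE 0.17), and the sign of each turned without cuprizone replicate 2, to -0.03 for Stip1 and -0.12 for Cdc37. Over the 5 genes of the Hsp90 system, 5 folds were positive with a median of 0.24, and 0 were called.

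All 7 Hsp70 and Hsp110 genes had positive folds and groups that did not overlap in CPM, where 25.7% of all tested genes lay higher in this way. With TMM-scaled CPM, where the share over all genes was 21.9%, this held for 5 of the 7, since the groups of Hspa8 and Hsph1 then overlapped. Hspa8 (ENSMUSG00000015656), the constitutive Hsc70 that also strips clathrin from vesicles, had 2295 and 2559 CPM in cuprizone and 2187 and 2060 CPM in mock libraries. Its log2 fold of 0.12 (SE 0.12) was no larger than its error, at an edgeR adjusted p of 0.775. Hspa2, a close relative known from testis and also made in brain, had 130 and 154 CPM in cuprizone against 82.0 and 122 CPM in mock libraries, a fold of 0.41 (SE 0.24). On the log2 scale the mock pair differed by 0.57, more than the groups did. The fold of Hspa2 was 0.15 without mock replicate 1 and 0.74 without mock replicate 2. The Hsp110 proteins act as exchange factors for Hsp70. Hspa4l stood at 256 and 243 CPM in cuprizone and 148 and 203 CPM in mock libraries, with a fold of 0.44 (SE 0.19), edgeR adjusted p = 0.421; it was 0.23 without mock replicate 1 and 0.71 without mock replicate 2. Hspa4 stood at 145 and 164 CPM in cuprizone against 115 and 120 CPM in mock, with 0.32 (SE 0.17), and Hsph1 at 467 and 460 CPM in cuprizone against 440 and 385 CPM in mock, with 0.10 (SE 0.14). The median of the 7 folds was 0.41, and it was 0.23 without mock replicate 1, 0.27 without cuprizone replicate 2 and 0.71 without mock replicate 2.

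Hspa1a and Hspa1b, the inducible Hsp70 genes, were low next to Hspa8: per kilobase, Hspa1a stood at 2.98 CPM in cuprizone and 1.51 CPM in mock libraries, and Hspa8 at 1014 CPM in cuprizone and 887 CPM in mock libraries. Hspa1a (ENSMUSG00000091971) had 234 and 166 counts in cuprizone and 102 and 92 counts in mock libraries, that is 10.7 and 6.97 CPM in cuprizone against 4.61 and 4.34 CPM in mock. Hspa1b (ENSMUSG00000090877) had 25 and 22 counts in cuprizone and 13 and 6 counts in mock libraries. Both stood higher in each cuprizone library than in each mock library, with log2 folds of 0.91 (SE 0.49) and 1.17 (SE 1.28) that the edgeR test did not call, at adjusted p = 0.518 and 0.803. For each Hspa8 count there were 0.00467 and 0.00272 Hspa1a counts in cuprizone and 0.00211 in each mock library. Their open reading frames share 1918 of 1926 aligned bases, with a longest identical stretch of 638 bases, and what became of reads that match both is not given in the sources used here. The split between the pair, and the total if such reads were dropped, are therefore uncertain. The genes lie 9951 bases apart on chromosome 17, Hspa1b at 34956436 to 34959238 and Hspa1a at 34969190 to 34972156, with 19.0% of its exon bases opposite exons of Gm20481.

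**Figure D3:**
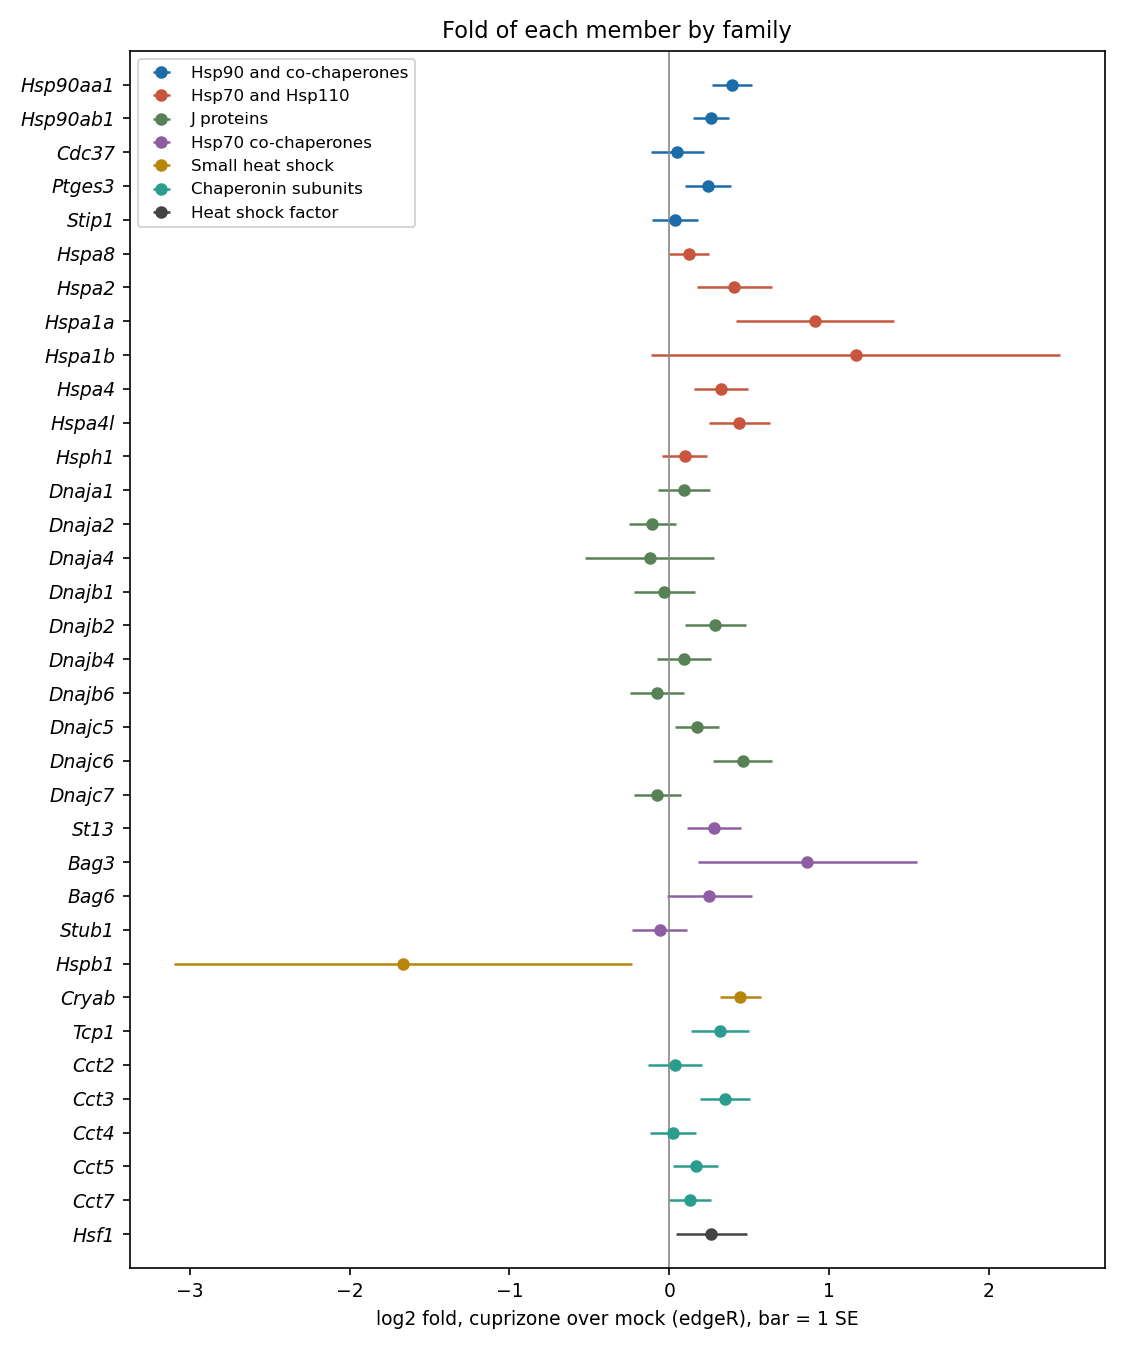
Points give the edgeR log2 fold of cuprizone over mock for each chaperone gene, with a bar of 1 SE, coloured by family. Folds cluster between -0.12 and 0.46, and the 4 genes outside, Hspa1a, Hspa1b, Bag3 and Hspb1, carry the widest bars.

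The 10 J proteins split evenly, with 5 positive and 5 negative folds and a median of 0.03, though Dnajb1 turned positive with library totals alone and the median was -0.06 without cuprizone replicate 1. Dnajc6 (ENSMUSG00000028528), the neuronal auxilin that recruits Hsc70 to clathrin-coated vesicles, had the highest fold of the J proteins: 241 and 186 CPM in cuprizone against 139 and 158 CPM in mock libraries. The groups did not overlap, with 0.46 (SE 0.19) on the log2 scale, an unadjusted p of 0.0462 and an edgeR adjusted p of 0.382. With cuprizone replicate 1 left out it was 0.27, and with cuprizone replicate 2 left out 0.62. The gene spans 101496648 to 101642799 on chromosome 4 of GRCm38. Gak, the auxilin found in most tissues and not one of the 35, had 84.7 and 94.5 CPM in cuprizone and 55.6 and 60.7 CPM in mock libraries, with a fold of 0.55 (SE 0.19), an unadjusted p of 0.0244 and an edgeR adjusted p of 0.310. Dnajc5, the cysteine string protein of synaptic vesicles, had 459 and 472 CPM in cuprizone and 374 and 412 CPM in mock libraries, again without overlap, at 0.18 (SE 0.14).

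Dnajb2, a J protein rich in neurons, had 164 and 218 CPM in cuprizone and 150 and 148 CPM in mock libraries, with a log2 fold of 0.29 (SE 0.19). It was 0.06 without cuprizone replicate 2 and 0.48 without cuprizone replicate 1. Dnajb4 had 120 and 116 CPM in cuprizone against 99.5 and 112 CPM in mock libraries, with 0.09 (SE 0.17). Groups of the other 6 overlapped. Dnaja1 and Dnaja2, general partners of Hsc70, had 415 and 327 CPM in cuprizone against 337 and 326 CPM in mock libraries, and 313 and 287 CPM in cuprizone against 324 and 291 CPM in mock. Dnajb1, the classical inducible Hsp40, had 204 and 171 CPM in cuprizone and 205 and 160 CPM in mock libraries. Dnajb6, which holds back polyglutamine aggregates, had 151 and 142 CPM in cuprizone against 159 and 135 CPM in mock, and Dnajc7, a J protein that also binds Hsp90, had 210 and 218 CPM in cuprizone against 209 and 221 CPM in mock. Dnaja4 was low, at 13.4 and 8.65 CPM in cuprizone and 11.7 and 11.1 CPM in mock libraries, and 44.1% of its exon bases lie opposite exons of Wdr61, whose reads cannot be separated without strand. Their folds ran from -0.12 for Dnaja4 (SE 0.40) to 0.09 for Dnaja1 (SE 0.16), and those of Dnaja1, Dnaja4, Dnajb1 and Dnajb6 changed sign when 1 library was left out.

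Among the other partners of Hsp70, Bag3 was the least even. Bag3 (ENSMUSG00000030847), an exchange factor and Hsf1 target that sends clients to autophagy, had 91 and 377 counts in cuprizone and 125 and 103 counts in mock libraries, or 4.17 and 15.8 CPM in cuprizone against 5.65 and 4.86 CPM in mock. Cuprizone replicate 1 was the lowest of the 4 libraries and cuprizone replicate 2 the highest, and the fold was 0.86 (SE 0.68; edgeR adjusted p = 0.691). Without cuprizone replicate 2 the fold was -0.41, and without cuprizone replicate 1 it was 1.53. The high library is the one with 1166 CPM of granule cell markers, and whether the 2 values are connected was not tested. Bag6, which guards tail-anchored and misfolded proteins, was also highest in that library, with 58.9 and 88.0 CPM in cuprizone and 52.3 and 65.6 CPM in mock libraries, and its fold of 0.25 (SE 0.26) was -0.08 without it. St13, known as Hip, which holds Hsp70 in its client-bound state, had 529 and 457 CPM in cuprizone against 341 and 433 CPM in mock, without overlap, at 0.28 (SE 0.17), and at 0.12 without mock replicate 1 and 0.48 without mock replicate 2. Stub1, the ubiquitin ligase CHIP, had 148 and 161 CPM in cuprizone against 168 and 140 CPM in mock, at -0.06 (SE 0.17), and 42.3% of its exon bases lie opposite exons of Jmjd8. The median of these 4 folds was 0.26, and -0.11 without cuprizone replicate 2.

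Cryab (ENSMUSG00000032060), alpha B-crystallin, a small heat shock protein that keeps unfolding proteins soluble, had the lowest p of the 35 genes. It had 660 and 641 CPM in cuprizone and 454 and 457 CPM in mock libraries, a mean of 650 ± 13.3 CPM in cuprizone against 456 ± 2.29 CPM in mock libraries (SD, n = 2 each). The groups lay far apart beside the spread within each pair, at a log2 fold of 0.44 (SE 0.13). The edgeR test gave an unadjusted p of 0.0117 and an adjusted p of 0.254; the lowest adjusted p over the alternatives was 0.0723 with DESeq2 and the highest 0.702 with 1 library left out, while the fold stayed between 0.43 and 0.51. Oligodendrocyte markers, whose cells carry Cryab, did not stand higher in cuprizone as a sum, at 10520 and 13630 CPM against 13190 and 15310 CPM in mock libraries, and the astrocyte sum stood lower. Cryab spans 50751325 to 50756636 on chromosome 9 of GRCm38, and 17.0% of its exon bases lie opposite exons of Hspb2, itself at 0.420 to 1.97 CPM. Hspb1, known as Hsp27, a small heat shock protein that also binds actin, was near the detection limit, with 4 and 6 counts in cuprizone and 13 and 16 counts in mock libraries. It was lower in both cuprizone libraries, at a fold of -1.67 (SE 1.43; edgeR adjusted p = 0.721), so the 2 small heat shock genes lay on opposite sides of 0.

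The 6 chaperonin subunits all had positive folds, between 0.02 and 0.35 with a median of 0.15, and 0 were called; those of Cct2 and Cct4 turned to -0.05 and -0.04 without mock replicate 1. Cct3 had 177 and 165 CPM in cuprizone against 131 and 125 CPM in mock libraries, with a log2 fold of 0.35 (SE 0.16), an unadjusted p of 0.0655 and an edgeR adjusted p of 0.430. Tcp1, the alpha subunit, had 164 and 191 CPM in cuprizone and 149 and 123 CPM in mock libraries, with 0.32 (SE 0.18), and 11.4% of its exon bases lie opposite Acat3. Both genes had groups that did not overlap. Cct5 had 342 and 337 CPM in cuprizone against 301 and 275 CPM in mock, with 0.16 (SE 0.14), and Cct7 574 and 530 CPM in cuprizone against 467 and 495 CPM in mock, with 0.13 (SE 0.13). Cct4, at 250 and 245 CPM in cuprizone against 221 and 243 CPM in mock, and Cct2, at 135 and 145 CPM in cuprizone against 122 and 138 CPM in mock, had folds of 0.02 (SE 0.15) and 0.04 (SE 0.17). In Cct2 the groups overlapped, and in Cct4 the nearest libraries stood at 245 CPM in cuprizone and 243 CPM in mock. Cct8 and Cct6a, subunits outside the 35, had folds of 0.32 (SE 0.14) and 0.04 (SE 0.17).

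The 6 subunits, which sit side by side in 1 ring, were not equal in CPM per kilobase. Per kilobase of principal transcript, Cct7 was the highest of the 6 in every library, at 235 and 217 CPM in cuprizone and 191 and 203 CPM in mock libraries, and Cct5 was next, at 184 and 182 CPM in cuprizone against 162 and 149 CPM in mock. Tcp1 was lowest in 3 libraries, at 67.2 CPM in cuprizone replicate 1 and 60.8 and 50.4 CPM in the mock libraries, and Cct2 in cuprizone replicate 2, at 73.9 CPM. The highest subunit stood 3.50 and 2.94 times above the lowest in cuprizone and 3.14 and 4.02 times in mock libraries. With all annotated exons as the length, Cct5 was highest and Cct3 lowest in each library, so the order rests on the transcript chosen.

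**Figure D4:**
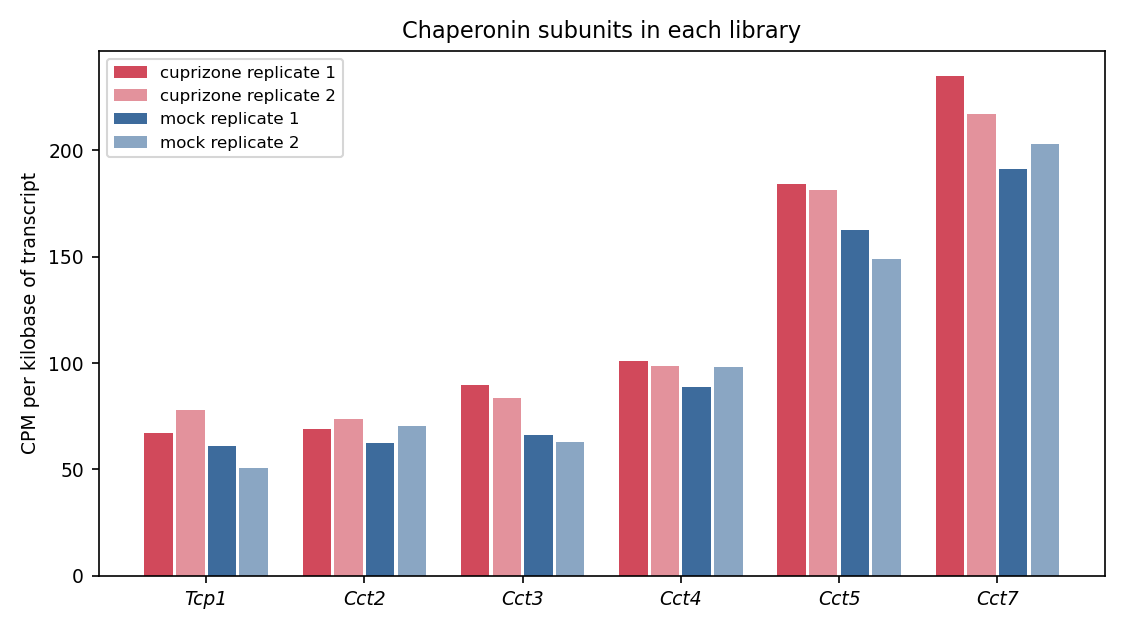
Bars give CPM per kilobase of the principal GENCODE transcript for the 6 chaperonin subunits, with 1 bar per library. Cct7 and Cct5 stand above the other 4 in each library, at 149 to 235 CPM per kilobase.

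Hsf1 (ENSMUSG00000022556), the factor that switches on the heat shock genes, had 49.6 and 60.4 CPM in cuprizone and 42.7 and 44.7 CPM in mock libraries, without overlap. Its log2 fold was 0.26 (SE 0.22; edgeR adjusted p = 0.711), and it was 0.10 without cuprizone replicate 2 and 0.41 without cuprizone replicate 1. The RNA level does not report its activity, which is set by trimer formation and phosphorylation.

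A further 65 chaperone and cofactor genes outside the compared lists were taken by function. Most act in the cytosol, but Hspa13 and the J proteins Dnajb12, Dnajb14 and Dnajc18 belong to membranes of the endoplasmic reticulum, with log2 folds of -1.27, -0.59, -0.34 and -0.40. Of the 63 that could be tested, 29 had positive and 34 negative folds, with a median of -0.03, and edgeR called 0; 3 positive and 4 negative ones had an unadjusted p under 0.05. Fnip1, a folliculin partner that also slows the ATPase of Hsp90, had 70.9 and 67.0 CPM in cuprizone against 17.55 and 25.98 CPM in mock libraries. Its fold was 1.59 on the log2 scale (SE 0.27; edgeR adjusted p = 0.129). Tbce, a tubulin folding cofactor downstream of the chaperonin, had 40.9 and 39.6 CPM in cuprizone against 25.0 and 22.2 CPM in mock, with 0.70 (SE 0.25; edgeR adjusted p = 0.321). Prefoldin, which feeds nascent actin and tubulin to the chaperonin, had lower values in Pfdn5, with 148 and 117 CPM in cuprizone against 208 and 166 CPM in mock libraries, and in Pfdn2, with 154 and 129 CPM in cuprizone against 202 and 176 CPM in mock. Their log2 folds were -0.57 (SE 0.20) and -0.49 (SE 0.17), with edgeR adjusted p = 0.318 and 0.326. Of the other prefoldin genes, Pfdn1 and Pfdn6 had folds of -0.36 (SE 0.18) and -0.37 (SE 0.22). Pfdn4 and Vbp1 went the other way, with 0.20 (SE 0.20) and 0.09 (SE 0.15). Hspa13, an Hsp70 relative, had 18.6 and 16.8 CPM in cuprizone and 42.2 and 38.9 CPM in mock libraries, with -1.27 (SE 0.26; edgeR adjusted p = 0.168). The SE of the Dnajc18 fold was 0.17. In lists without a gene at an unadjusted p under 0.05, the genes with the highest mean CPM over the 4 libraries were Hspb8, a small heat shock partner of Bag3, at -0.59 (SE 0.26), Hspbp1, an Hsp70 exchange factor, at -0.19 (SE 0.16), and Hsbp1, a binding protein of heat shock factor, at -0.31 (SE 0.20).

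Chaperones of other compartments were set beside the 35 cytosolic ones. Of 18 genes of the endoplasmic reticulum (ER), 16 had negative folds, 14 of them with an unadjusted p under 0.05. Among all tested genes, 7.04% had such a p with a negative fold and 5.73% with a positive one. The median of the 18 was -0.82, and edgeR called 0. Herpud1, a degradation factor, was the 1 ER gene with such a p and a positive fold, 0.53 (SE 0.19). Hsp90b1, the Hsp90 of the ER, had 168 and 115 CPM in cuprizone and 251 and 292 CPM in mock libraries and stood at -1.01 (SE 0.22) on the log2 scale, whereas its cytosolic relatives Hsp90aa1 and Hsp90ab1 stood at 0.39 and 0.26. The other folds of largest size were Dnajc10 at -1.21 (SE 0.21), Sil1 at -1.18 (SE 0.30) and the lectin chaperone Canx at -0.99 (SE 0.16). Of 13 mitochondrial chaperones and proteases, 6 had positive and 7 negative folds with a median of -0.01, among them the protease subunit Clpx at 0.44 (SE 0.18, unadjusted p = 0.0469). The 31 proteasome subunits had 11 positive and 20 negative folds with a median of -0.06 that turned to 0.01 with library totals alone, and 0 had an unadjusted p under 0.05; Psmb1, with the highest mean CPM over the 4 libraries, stood at -0.25 (SE 0.15). The share of counts taken by the ER list was 0.213% and 0.180% in cuprizone and 0.317% and 0.331% in mock libraries, against 1.43% in each cuprizone library and 1.18% and 1.19% in the mock libraries for the 35 cytosolic genes. No test of the difference between these lists was made.

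**Figure D5:**
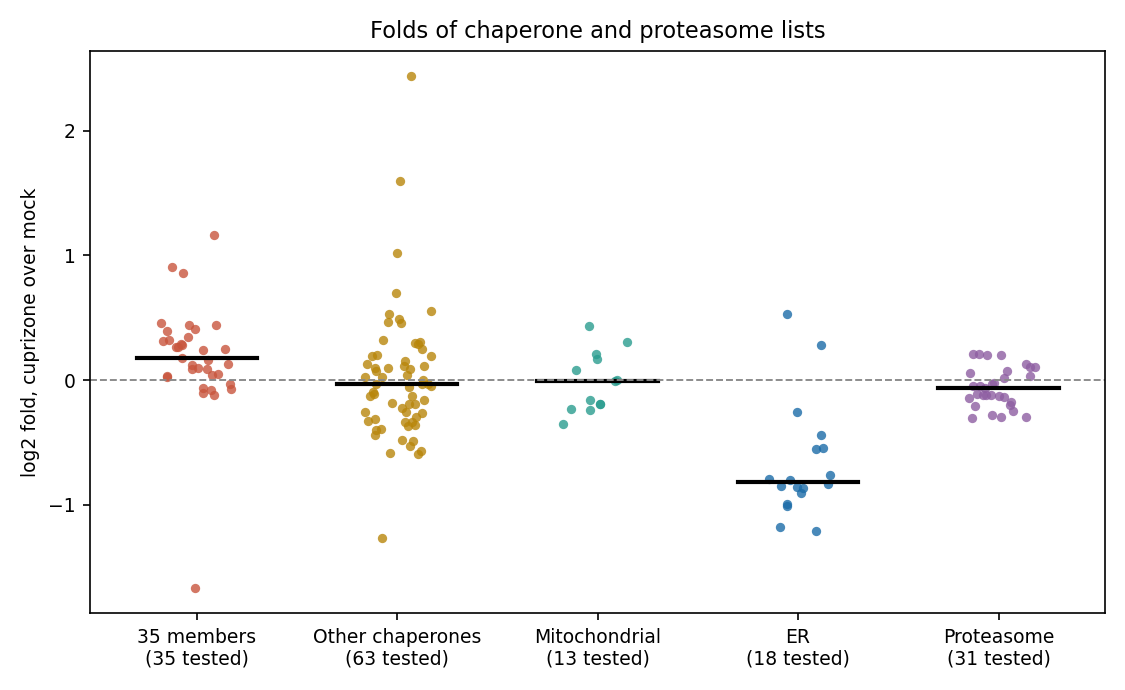
Each point is the edgeR log2 fold of cuprizone over mock of 1 gene, thick lines are medians and the dashed line is the median of all 15816 tested genes. The medians are 0.18 for the 35 cytosolic genes, -0.03 for the other chaperone genes, -0.01 for mitochondria, -0.82 for the ER and -0.06 for the proteasome.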

How the data were processed

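RNA bound to HA-tagged ribosomes was sequenced from 2 cuprizone and 2 mock samples. The authors deposited raw counts per Ensembl gene, 1 table per library, not normalized. Per the submitters' processing notes, FastQC 0.11.9, STAR 2.5.4b and featureCounts 1.6.0 were used with GRCm38. Which annotation release was used, whether strand was counted and what became of reads with several matches is not given in the sources used here. Symbols were matched for 55144 of 55471 ids; the other 327 held at most 0.0230% of a library.

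CPM was computed on library totals. All genes were fitted once in R 4.3.3 with edgeR 4.0.16 (filterByExpr by group, TMM, glmQLFit robust with the default dispersions, glmQLFTest, 2-sided, Benjamini-Hochberg over 15816 genes, threshold 0.05), with no block or covariate. Folds are cuprizone over mock, and the SE is the size of the fold divided by the square root of F. Alternatives were other scalings and filters, bias-adjusted dispersions, DESeq2 1.42.0, limma-voom (limma 3.58.1), a replicate block and leaving out each library. Gene spans, exon overlaps and lengths come from GENCODE M21; the length per kilobase is that of the longest principal transcript.

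The members and lists were chosen with earlier results of these data known. Every one of the 35 genes could be named; those with an unadjusted p under 0.05, or with groups that did not overlap and a log2 fold of at least 0.5 in size, and the most abundant of each family were to be given in every library. From the other chaperone, ER, mitochondrial and proteasome lists, genes with an unadjusted p under 0.05 and no overlap were named, at most 4 per list by size, or else the most abundant. Cct8, Cct6a, Herpud1, Dnajb12, Dnajb14, Snap25, Pfdn1, Pfdn4, Pfdn6 and Vbp1 beyond these were named after their values were seen. They stand beside a member, a sum, a count or genes of the same complex. The labels call the libraries biological replicates without naming animals, so p-values reflect only how these libraries differ from each other, which may be technical. Within pairs, a chi-square per degree of freedom of 56.5 (cuprizone) and 35.1 (mock) lay above sampling noise.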

Additional observations from a re-analysis of the deposited data

How the results depend on the processing

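Under all 13 alternatives, 0 of the 35 chaperone genes rose and 0 fell by adjusted p, while calls among all genes, 5 risen and 8 fallen as reported, were 2 and 3 without either mock replicate, 52 and 71 without cuprizone replicate 1, 9 and 17 without cuprizone replicate 2, 45 and 146 with no low-count filter, 14 and 54 where mean CPM had to reach 1, 9 and 42 with bias-adjusted dispersions, 9 and 38 with limma-voom and 298 and 462 with DESeq2. With 1 library left out, the lone library of its group is assumed to vary like the other pair. The median log2 fold of the 35 stayed positive, at 0.24 with library totals alone, where the median of all genes was 0.07, and at 0.14 to 0.21 with 1 library left out. Where mean CPM had to reach 1, 33 of the 35 were tested, without Hspa1b and Hspb1. No alternative put any of the 35 past the threshold; the lowest adjusted p was 0.0723 for Cryab with DESeq2. Signs turned in 11 genes, and the cause was not tested. With library totals alone Dnajb1 stood at 0.0387 and Stub1 at 0.0085. With 1 library left out, the folds ran from -0.12 to 0.20 for Cdc37, -0.0313 to 0.10 for Stip1, -0.0833 to 0.24 for Dnaja1, -0.46 to 0.15 for Dnaja4, -0.18 to 0.16 for Dnajb1, -0.17 to 0.0417 for Dnajb6, -0.41 to 1.53 for Bag3, -0.0803 to 0.52 for Bag6, -0.16 to 0.0738 for Stub1, -0.0481 to 0.15 for Cct2 and -0.0444 to 0.12 for Cct4. Without turning sign, others moved by over 1.5 times: the range was 0.0312 to 0.21 for Hspa8, 0.0274 to 0.20 for Hsph1, 0.58 to 1.18 for Hspa1a, 0.76 to 1.78 for Hspa1b, 0.0083 to 0.20 for Dnajb4, 0.11 to 0.27 for Dnajc5, -0.16 to -0.0244 for Dnaja2, -0.11 to -0.0107 for Dnajc7, 0.19 to 0.46 for Tcp1 and 0.0763 to 0.19 for Cct7. The median of the J proteins ran from -0.06 to 0.09 over the same runs. With the replicate block the median of the 35 was 0.18 and 0 were called; deviations of libraries with the same number correlated at -0.0124 over all tested genes, so the numbers were not taken to pair the libraries. With 2 libraries a group, the spread is poorly known, and 6 to 25 counts in Hspa1b and 4 to 16 in Hspb1 limit what these genes can show.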
